A study of Mus musculus with 20 samples.

Results

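The 9 genes described here encode cytokines of the TNF, IL-6, IL-10 and IL-12 families, with IL-15, which macrophages also make: Tnf, Il6, Il10, Il12a, Il12b, Il23a, Il27, Ebi3 and Il15. They were taken by gene name from the deposited expression table, in which each had 1 row, and make up 9 of its 78409 genes, of which 34373 had a count in at least 1 library. The table holds 20 libraries of bone marrow-derived macrophages (BMDMs), grown from the marrow of wild-type female C57BL/6J mice in medium conditioned by L929 fibroblasts and treated on day 7 of culture at 200000 cells per well. There were 5 groups of 4 libraries: PBS, and airway fluid from RNY1+/+ or RNY1-/- mice with ovalbumin-induced airway inflammation, given as an extracellular vesicle-enriched fraction (EVFx) or a protein-enriched fraction (ProteinFx). The genotype is thus that of the mouse that gave the fluid, and all macrophages were wild type. EVFx of both genotypes was added at 35000000 particles per µL and ProteinFx of both genotypes at 0.75 µg of protein per µL, after 5 days of cold storage, so that genotypes were matched within a fraction while the doses of the fractions were set on different scales. Nothing in the labels ties the 4 libraries of any group to different cultures, animals or fluid samples, so p-values measure only the spread between these libraries, which may be technical.

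TNF is an early cytokine of activated macrophages, made as a membrane protein that is shed by the protease ADAM17 and read by the receptors TNFR1 and TNFR2. The IL-12 family is built from shared chains: the p40 chain (Il12b) pairs with p35 (Il12a) to form IL-12 or with p19 (Il23a) to form IL-23, and EBI3 (Ebi3) pairs with p28 (Il27) to form IL-27 or with p35 to form IL-35. IL-6 and IL-10 act through the kinases JAK1, JAK2 and TYK2, with IL-10 restraining cytokine production, and IL-15 is held at the cell surface by its own receptor chain IL-15Rα and presented to lymphocytes.

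The promoters of Tnf, Il12b, Ebi3 and Il6 are shown because these genes gained transcripts after EVFx or had none without airway fluid. Each sequence runs 5′ to 3′ from 250 bases before to 50 after a transcription start in RefSeq's annotation of GRCm38.p6, and 5 of the 9 genes had such an entry. Capitals mark matches to the NF-kB motif, the interferon-stimulated response element (ISRE), the AP-1 motif TGANTCA, the cAMP response element TGACGTCA, the STAT motif TTCNNNGAA or the TATA box TATAAA. Both strands were searched, except for the TATA box, which was sought on the coding strand only.
Tnf, chr17:35201958-35202257, minus strand: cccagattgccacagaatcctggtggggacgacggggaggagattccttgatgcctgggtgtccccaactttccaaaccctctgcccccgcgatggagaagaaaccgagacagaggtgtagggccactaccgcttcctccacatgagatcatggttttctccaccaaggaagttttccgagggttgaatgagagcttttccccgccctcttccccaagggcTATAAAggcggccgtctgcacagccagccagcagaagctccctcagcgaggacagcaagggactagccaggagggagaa
Il12b, chr11:44399813-44400112, plus strand: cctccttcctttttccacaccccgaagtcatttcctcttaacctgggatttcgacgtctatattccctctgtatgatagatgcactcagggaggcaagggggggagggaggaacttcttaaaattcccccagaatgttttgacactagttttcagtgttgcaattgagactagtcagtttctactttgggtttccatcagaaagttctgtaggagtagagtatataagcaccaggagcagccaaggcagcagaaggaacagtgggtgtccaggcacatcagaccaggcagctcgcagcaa
Ebi3, chr17:55952373-55952672, plus strand: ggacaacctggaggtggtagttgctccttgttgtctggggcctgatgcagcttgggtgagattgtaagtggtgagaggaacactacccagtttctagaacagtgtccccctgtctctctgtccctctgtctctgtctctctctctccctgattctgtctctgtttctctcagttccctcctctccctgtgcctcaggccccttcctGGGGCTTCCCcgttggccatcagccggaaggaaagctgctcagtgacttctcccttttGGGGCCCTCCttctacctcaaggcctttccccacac
Il6, chr5:30012864-30013163, plus strand: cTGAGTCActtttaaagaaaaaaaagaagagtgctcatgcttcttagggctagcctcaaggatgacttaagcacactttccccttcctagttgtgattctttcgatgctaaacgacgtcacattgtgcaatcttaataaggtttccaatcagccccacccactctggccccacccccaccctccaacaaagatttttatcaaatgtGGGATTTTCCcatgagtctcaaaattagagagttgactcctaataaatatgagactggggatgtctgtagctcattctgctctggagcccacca

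The Tnf window held a TATA box that began 29 bases before the start. In the Ebi3 window the NF-kB motif matched 44 bases before the start and again at base 15 of the transcript, and in the Il6 window it also matched 44 bases before the start, with an AP-1 motif 249 bases before it. The Il12b window held none of the 6 motifs, and neither did the 2 windows of Il12a. Of 32851 RefSeq promoters of this length, 8.46% held an NF-kB match, 1.22% held 2 or more, 7.81% held an AP-1 match and 8.32% a TATA box. A match says only that the letters are there. Lack of a match says only that this form of the motif is absent, as other forms were not searched.

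The 3′ ends of these transcripts matter here because the libraries were primed on the poly(A) tail and reads were counted on exons and 3′ UTRs. An AU-rich 3′ UTR is a textbook feature of short-lived cytokine messages. The longest annotated 3′ UTR of each gene was searched. The nonamer TTATTTATT occurred 5 times in that of Tnf and 2 times in that of Il27. It occurred 1 time each in Il12a and Il23a and not in the other members. Among 20763 protein-coding genes of GENCODE's GRCm38 annotation, 7.74% had 1 or more nonamers and 1.9% had 2 or more. The windows below, from bases 435 to 464 of the Tnf 3′ UTR and 178 to 207 of the Il27 3′ UTR, carry 4 overlapping nonamers and 1 nonamer, respectively, in capitals.
Tnf 3′ UTR: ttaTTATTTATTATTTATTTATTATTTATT
Il27 3′ UTR: agatatttatttcttggatatTTATTTATT

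Total counts per library ranged from 2510005 to 8277366, with a median of 5456425 and the highest group median after RNY1+/+ EVFx (7864328 counts), and 3 counts or fewer were taken as not measurable. Levels are given as counts-per-million (CPM), each count scaled by its library's total. All 9 macrophage markers listed were detected, with summed levels between 8740 and 13600 CPM per library and the lowest group medians in the EVFx groups (9680 and 9380 CPM, against 12900 CPM in PBS). The eosinophil gene Epx, the alveolar gene Sftpc and the mast cell genes Mcpt4 and Tpsb2 were at 0 in every library. In every library 4 of 5 T cell markers and 5 of 6 dendritic cell markers were at or under 3 counts, and mast cell markers never passed 3 counts. Only 2 of 6 airway epithelium, 2 of 5 B cell and 0 of 5 fibroblast markers stayed that low. Summed levels per library were 5.32 to 33.1 CPM for airway epithelium, 1.04 to 4.34 CPM for B cells and 10.8 to 51.4 CPM for fibroblasts. The 9 neutrophil markers summed to 287 to 336 CPM in PBS, 144 to 210 CPM after RNY1+/+ EVFx, 185 to 266 CPM after RNY1-/- EVFx and 199 to 356 CPM after ProteinFx. Summed eosinophil markers, of which 2 of 4 were measurable, ranged from 0.801 to 2.46 CPM in the EVFx libraries and from 7.17 to 21.1 CPM in the PBS and ProteinFx libraries, and the part of other cell types in the results was not tested. PBS replicate 3 lay apart from the other PBS libraries (distances of 51.9 to 70.6 in log2 CPM over all genes, against 26.1 to 38.5 among the others), and the RNY1-/- ProteinFx libraries fell into replicates 1 and 2 (distance 25.9) and replicates 3 and 4 (38.8), with 49.2 to 60.4 across. In bulk RNA, more cells that express a gene and more transcripts per cell cannot be told apart.

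**Figure D1:**
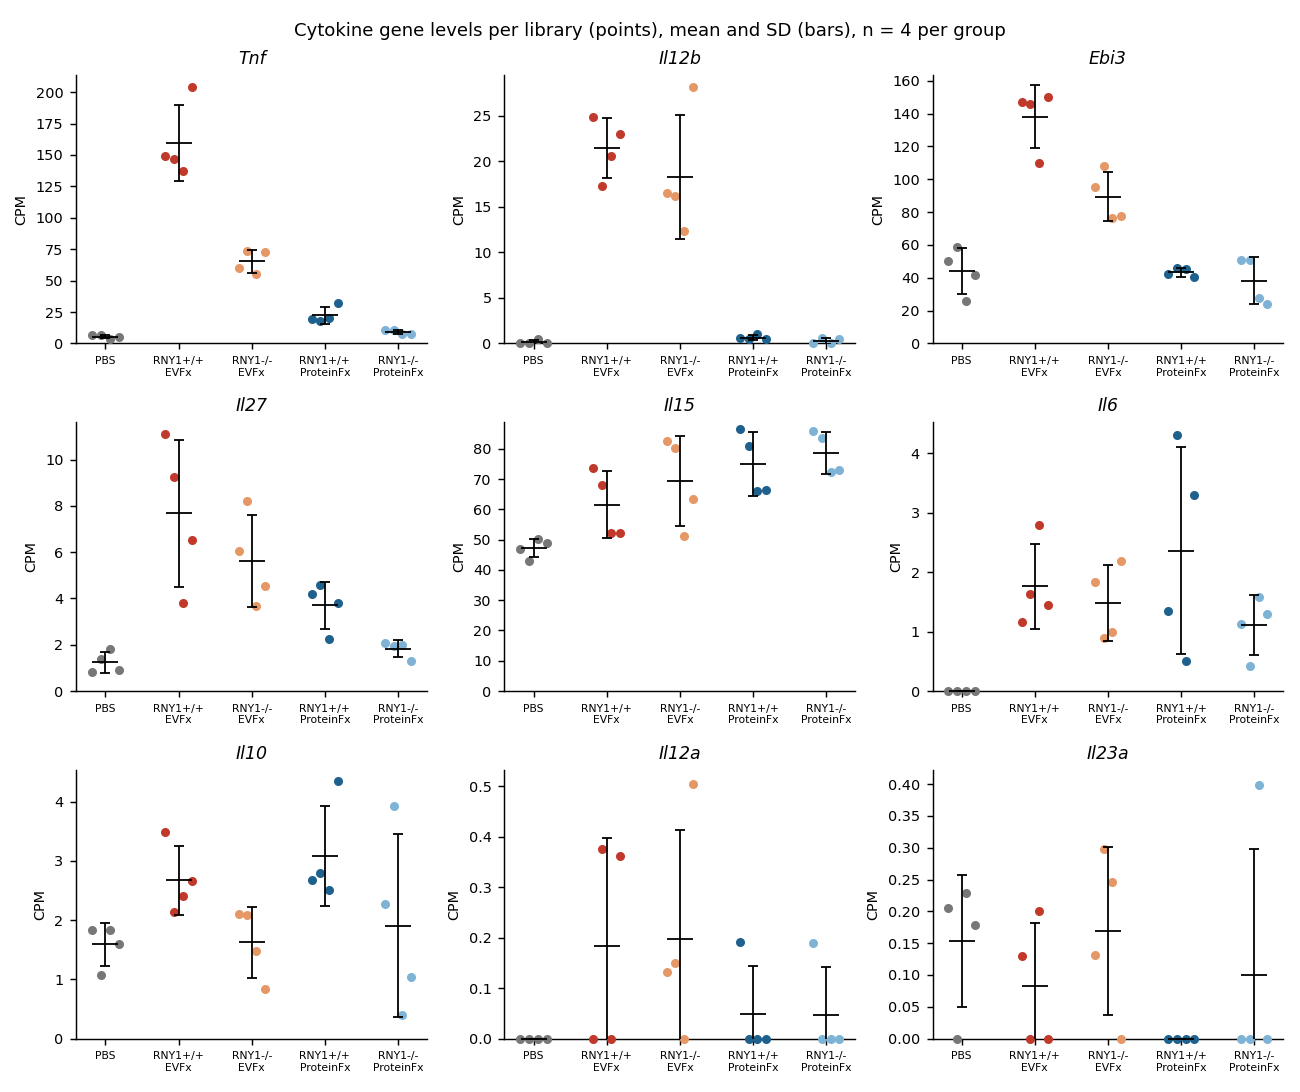
Level of each of the 9 cytokine genes in CPM (y axis, linear, from 0) in every library of the 5 treatment groups (x axis); points are libraries, horizontal bars are group means and vertical bars are SD with n = 4, cut where they pass below 0. The groups of Tnf form 5 separate steps, Il12b is at 12.3 CPM or more in the EVFx groups and at 1.01 CPM or less elsewhere, and Il12a and Il23a stay near 0 throughout.

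Tnf, the TNF gene (ENSMUSG00000024401), was lowest in PBS, where the 4 libraries held 6.35, 6.95, 3.89 and 4.98 CPM. RNY1-/- ProteinFx gave 11.1, 10.6, 7.57 and 7.78 CPM, and RNY1+/+ ProteinFx gave 19.7, 18, 20.1 and 32.6 CPM. RNY1-/- EVFx gave 60.2, 73.3, 54.9 and 72.7 CPM, and RNY1+/+ EVFx gave 149, 147, 137 and 204 CPM. No 2 of the 5 groups overlapped, so that Tnf ordered all treatments. Against PBS the mean level was 28.8 times as high after RNY1+/+ EVFx (159 ± 30.4 against 5.54 ± 1.38 CPM, SD, n = 4) and 11.8 times as high after RNY1-/- EVFx (65.3 ± 9.17 CPM). It was 4.08 times as high after RNY1+/+ ProteinFx (22.6 ± 6.74 CPM) and 1.67 times as high after RNY1-/- ProteinFx (9.28 ± 1.87 CPM).

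In edgeR's quasi-likelihood test, Tnf rose over PBS by 5.00 on the log2 scale (adjusted p = 1.82e-08, standard error 0.20) after RNY1+/+ EVFx, 3.78 (adjusted p = 5.55e-08, standard error 0.19) after RNY1-/- EVFx and 2.19 (adjusted p = 2.65e-05, standard error 0.25) after RNY1+/+ ProteinFx. After RNY1-/- ProteinFx the log2 fold change was 0.81 (adjusted p = 0.0179, standard error 0.22), under the limit of 1 that a differentially expressed gene (DEG) also had to pass. That adjusted p was 0.0538 without PBS replicate 4. With only RNY1-/- ProteinFx replicates 1 and 2 it was 0.034, and with only replicates 3 and 4 it was 0.141 (log2 fold change 0.59). The comparisons with PBS share their 4 control libraries.

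Il12b (ENSMUSG00000004296), which encodes p40, was measurable mainly after EVFx. It held 24.9, 17.3, 20.6 and 23.0 CPM after RNY1+/+ EVFx and 16.5, 16.2, 12.3 and 28.1 CPM after RNY1-/- EVFx. In PBS 3 libraries had no count and replicate 3 had 2, and the ProteinFx libraries had 0 to 4 counts each. The EVFx groups did not overlap with any other group, and they overlapped with each other. Pooled over a group's libraries, the level was 230 times that of PBS after RNY1+/+ EVFx (624 counts against 2, exact 95% interval 63.3 to 1900) and 198 times after RNY1-/- EVFx (452 counts, interval 54.6 to 1640). These intervals cover counting error only, and both PBS counts came from the library that lay apart. edgeR called Il12b in both EVFx comparisons (adjusted p = 1.84e-07 and 1.63e-06), where it passed the filter on low values through the EVFx libraries alone.

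Ebi3 (ENSMUSG00000003206), the chain shared by IL-27 and IL-35, was present in every library. PBS held 50.4, 58.9, 25.6 and 42.0 CPM, and RNY1+/+ EVFx held 147, 146, 110 and 150 CPM. RNY1-/- EVFx held 95.5, 108, 76.4 and 77.9 CPM and lay between these groups without touching either. RNY1+/+ ProteinFx held 42.1, 45.9, 45.5 and 40.3 CPM, and RNY1-/- ProteinFx held 50.8, 50.8, 27.9 and 23.9 CPM; both overlapped with PBS. Mean levels were 3.12 times those of PBS after RNY1+/+ EVFx (log2 fold change 1.81, standard error 0.21, adjusted p = 4.38e-05) and 2.02 times after RNY1-/- EVFx (1.25, 0.21, adjusted p = 0.000533). The log2 fold change after RNY1+/+ ProteinFx was 0.13 (95% interval -0.31 to 0.58) and after RNY1-/- ProteinFx -0.14 (-0.77 to 0.49), and neither passed the test. Ebi3 has a GC content of 57.4%, the highest of the 9 transcripts. After each library's trends in level along length and GC content had been taken out, these ProteinFx values became 0.78 (adjusted p = 3.29e-05) and 0.45 (adjusted p = 0.0273).

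Il27 (ENSMUSG00000044701), which encodes p28, held 11.1, 9.26, 3.80 and 6.52 CPM after RNY1+/+ EVFx and 6.04, 8.19, 3.69 and 4.54 CPM after RNY1-/- EVFx. PBS held 0.82, 1.39, 1.83 and 0.89 CPM, from 4 to 9 counts per library. RNY1+/+ ProteinFx held 4.21, 4.56, 2.26 and 3.82 CPM and RNY1-/- ProteinFx held 2.08, 1.96, 1.99 and 1.3 CPM. PBS was thus below every EVFx and every RNY1+/+ ProteinFx library, and overlapped with RNY1-/- ProteinFx. Il27 rose over PBS by 2.84 (standard error 0.38, adjusted p = 0.000125) after RNY1+/+ EVFx and by 2.45 (0.33, adjusted p = 0.000107) after RNY1-/- EVFx on the log2 scale. It was under the mean of 3 CPM required in the ProteinFx comparisons with PBS. With edgeR's default filter alone it passed after RNY1+/+ ProteinFx (log2 fold change 1.78, standard error 0.33, adjusted p = 0.000823), and with no filter the value after RNY1-/- ProteinFx was 0.68 (adjusted p = 0.364).

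The chains of a dimer were also compared as a ratio of counts within a library, which does not depend on scaling. Of the pairs Il12b to Il12a, Il12b to Il23a, Ebi3 to Il27 and Ebi3 to Il12a, only Ebi3 to Il27 had more than 3 counts of each chain in every library. Its mean log2 ratio was 5.06 ± 0.91 (SD, n = 4) in PBS, 4.25 ± 0.50 after RNY1+/+ EVFx, 4.02 ± 0.25 after RNY1-/- EVFx, 3.55 ± 0.47 after RNY1+/+ ProteinFx and 4.24 ± 0.45 after RNY1-/- ProteinFx. The furthest group from PBS was RNY1+/+ ProteinFx, at 0.351 of the PBS ratio (exact two-sided permutation p = 0.0571, adjusted p = 0.229). None of the 8 comparisons passed by this test, in which 4 libraries against 4 allow no p below 0.0286, and no unadjusted p was under 0.05.

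Il15 (ENSMUSG00000031712) was lowest in PBS and differed little among the airway fluid groups. PBS held 46.9, 43.1, 50.1 and 48.8 CPM. After RNY1+/+ EVFx the libraries held 73.7, 68.2, 52.1 and 52.3 CPM, and after RNY1-/- EVFx 82.7, 80.3, 51.2 and 63.4 CPM. After RNY1+/+ ProteinFx they held 86.7, 80.9, 66.1 and 66.3 CPM, and after RNY1-/- ProteinFx 85.8, 83.5, 72.5 and 72.9 CPM. Every airway fluid library was above every PBS library, while the 4 airway fluid groups overlapped. Against PBS the log2 fold changes were 0.56 (adjusted p = 0.00619), 0.80 (adjusted p = 0.000908), 0.84 (adjusted p = 0.000172) and 0.80 (adjusted p = 0.000311) in the same order, with standard errors of 0.11 to 0.15. All 4 passed the adjusted p and none reached a log2 fold change of 1.

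Il6 was not counted in any PBS library, which allows a level of up to 0.141 CPM over the group by the rule of 3 counts. It had 9, 13, 14 and 12 counts after RNY1+/+ EVFx, 14, 6, 4 and 13 after RNY1-/- EVFx, 7, 17, 2 and 19 after RNY1+/+ ProteinFx and 6, 3, 4 and 5 after RNY1-/- ProteinFx. Each of the 16 airway fluid libraries thus had at least 2 counts, 14 of them more than 3, and none exceeded 4.31 CPM. Against 3 counts in the pooled PBS libraries, the level was 11.8 times as high after RNY1+/+ EVFx and 10.8 times after RNY1-/- EVFx. It was 16.9 times as high after RNY1+/+ ProteinFx and 6.81 times after RNY1-/- ProteinFx. These folds leave out counting error in the airway fluid counts. The exact 95% intervals for counting error of the pooled levels began at 1.22, 1.07, 1.74 and 0.567 CPM in the same order. That of PBS ended at 0.173 CPM. Il6 was under the filter of all comparisons. Without a filter, edgeR gave adjusted p values of 2.6e-09, 2.41e-09, 9.64e-13 and 4.98e-05 in the same order. Such values are not on the scale of those from the filtered fits. For the receptor gene Il15ra, edgeR gave RNY1+/+ ProteinFx against PBS an adjusted p of 4.14e-79 without a filter and 2.01e-07 with it. RNY1-/- ProteinFx held 0.402 of the pooled level of RNY1+/+ ProteinFx (exact 95% interval 0.219 to 0.709 for counting error), but the libraries overlapped and the adjusted p without a filter was 0.0666.

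Il10, which encodes the regulatory cytokine IL-10, held 1.84, 1.08, 1.83 and 1.60 CPM in PBS, from 7 to 9 counts per library. RNY1+/+ EVFx gave 3.49, 2.13, 2.40 and 2.66 CPM and RNY1+/+ ProteinFx gave 2.68, 2.79, 2.51 and 4.34 CPM, all above PBS. RNY1-/- EVFx gave 2.1, 2.09, 1.48 and 0.841 CPM and RNY1-/- ProteinFx gave 2.27, 3.92, 0.398 and 1.04 CPM, and both overlapped with PBS. Il10 was under the mean of 3 CPM required. With edgeR's default filter alone the log2 fold change over PBS was 1.18 (standard error 0.30, adjusted p = 0.00692) after RNY1+/+ ProteinFx, 0.97 (0.28, adjusted p = 0.0146) after RNY1+/+ EVFx and 0.34 (0.34, adjusted p = 0.411) after RNY1-/- EVFx. The difference between the genotypes itself did not pass under EVFx (-0.62, adjusted p = 0.0947) or ProteinFx (-0.58, adjusted p = 0.503).

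Il12a and Il23a, the partner chains of p40, stayed at or under 3 counts in every library. Il12a had 13 counts over the 20 libraries, at most 3 in any library and none in PBS, and Il23a had 10 counts, at most 2 in any library. Pooled over a group, Il12a had 6 counts after RNY1+/+ EVFx (0.207 CPM) and 5 after RNY1-/- EVFx (0.205 CPM), at least 1.47-fold and 1.46-fold higher than 3 counts in the pooled PBS libraries. Il23a had 3 counts in PBS, 2 after RNY1+/+ EVFx and 4 after RNY1-/- EVFx.

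Counted against all genes, the members called after EVFx were the same 4, Tnf, Il12b, Il27 and Ebi3. They were 4 of the 5 members that passed the filter in RNY1+/+ EVFx against PBS, where 16.4% of 10797 genes tested were DEGs, and in RNY1-/- EVFx against PBS, where 22.5% of 10729 were. All 4 rose. Il12b and Il27, with PBS means under 3 CPM, passed the filter only through the EVFx libraries and so had to differ, and the count of 4 is not read against these shares. For RNY1+/+ ProteinFx against PBS, 1 of 3 members tested, Tnf, was called beside 21.3% of all genes, and for RNY1-/- ProteinFx against PBS 0 of 3 were called beside 14.3%. In that last comparison Tnf and Il15 had an unadjusted p under 0.05, and DESeq2 also called 0. Without a limit on mean CPM the RNY1+/+ ProteinFx count was 3, and with no filter it was 5.

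**Figure D2:**
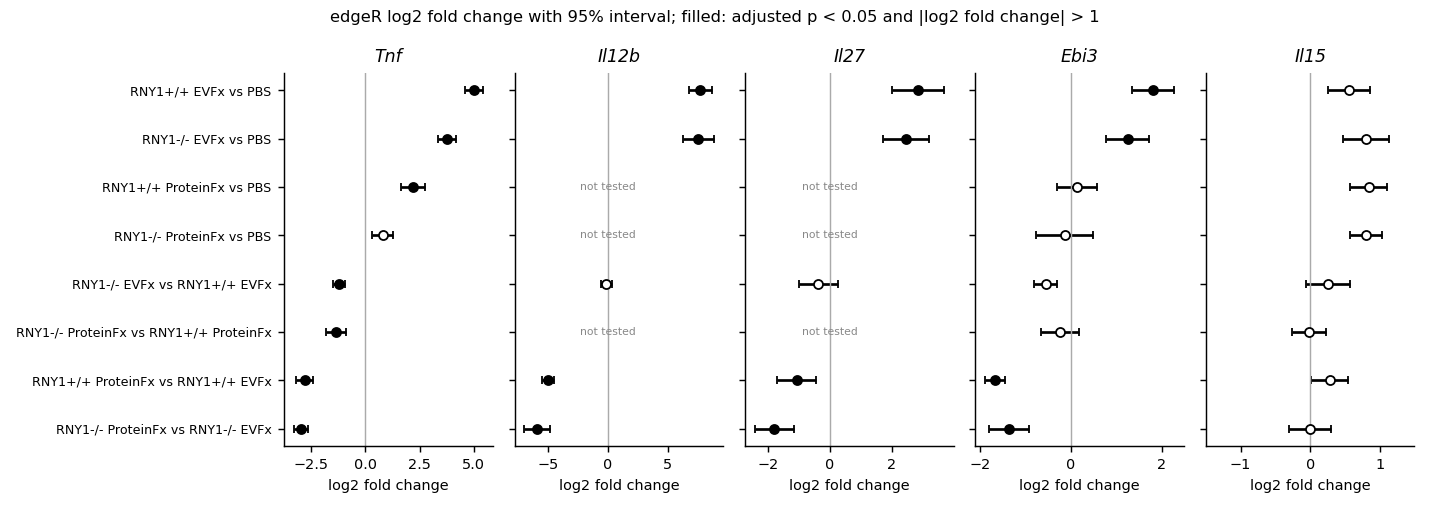
Log2 fold change (x axis) of the 5 testable cytokine genes in the 8 pairwise comparisons (y axis), with 95% intervals from edgeR on 4 libraries per group; filled points passed both limits of a DEG (adjusted p of 0.05, log2 fold change of 1 in either direction), and "not tested" marks genes under the filter on low values. Tnf, Il12b, Il27 and Ebi3 lie right of 0 in the EVFx comparisons with PBS and left of 0 in ProteinFx against EVFx, while no Il15 point is filled.

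The genotype of the fluid's donor was compared within each fraction at matched dose. Tnf was lower with RNY1-/- than with RNY1+/+ fluid in both fractions, without overlap. With EVFx the RNY1-/- mean was 0.409 of the RNY1+/+ mean (log2 fold change -1.22, standard error 0.13, adjusted p = 0.000199), and with ProteinFx it was 0.411 (-1.35, 0.22, adjusted p = 0.00312). Tnf was the only member called in either, 1 of 5 tested with EVFx beside 2.35% of all genes and 1 of 3 with ProteinFx beside 1.82%. The EVFx share of all genes was 0.962% without RNY1+/+ EVFx replicate 4 and 0.928% with length and GC trends removed, where 59 genes were higher and 34 lower in place of 39 and 204. The ProteinFx share was 1.1% without RNY1+/+ ProteinFx replicate 4 and 3.86% with RNY1-/- ProteinFx replicates 1 and 2 only. With length and GC trends removed the EVFx value was -0.96 (adjusted p = 0.000198), under the limit on fold change, and the ProteinFx value was -1.43 (adjusted p = 0.00114). The ProteinFx call was also made with RNY1-/- ProteinFx replicates 1 and 2 only (-1.22, adjusted p = 0.00252) and with replicates 3 and 4 only (-1.61, adjusted p = 0.00532).

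The other members showed no called genotype difference. Ebi3 with EVFx was lower without overlap, at 0.648 of the RNY1+/+ mean (log2 fold change -0.56, standard error 0.12, adjusted p = 0.00209), but this became -0.08 (adjusted p = 0.545) with length and GC trends removed. Its ProteinFx value of -0.24 (95% interval -0.67 to 0.18) was -0.79 (adjusted p = 0.00335) with RNY1-/- ProteinFx replicates 3 and 4 only and 0.09 with replicates 1 and 2 only. Il12b did not pass with EVFx, where the interval of its log2 fold change was -0.60 to 0.31 around -0.14, and neither did Il27, at -0.38 (-1.0 to 0.25). Il27 with ProteinFx was lower without overlap, at 1.83 ± 0.36 against 3.71 ± 1.01 CPM. It was tested there only with edgeR's default filter alone (-1.11, adjusted p = 0.0401) or no filter (-1.07, adjusted p = 0.054). The intervals for Il15 were -0.07 to 0.57 with EVFx and -0.26 to 0.23 with ProteinFx.

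**Figure D3:**
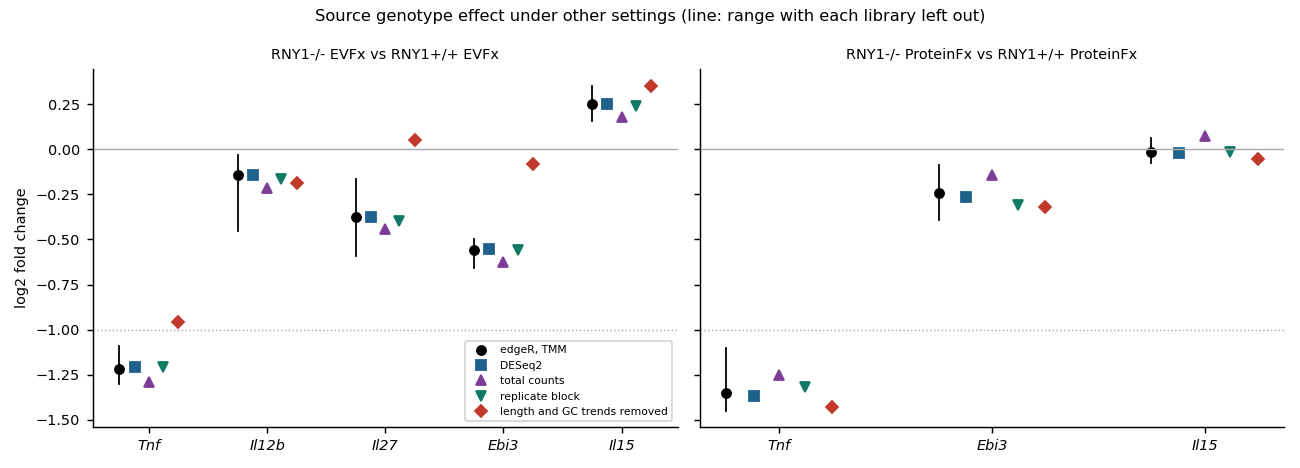
Log2 fold change (y axis) of RNY1-/- against RNY1+/+ fluid for the testable cytokine genes (x axis) in EVFx and ProteinFx under 5 ways of fitting the counts, with vertical lines for the range when each of the 8 libraries is left out of the edgeR fit and a dotted line at the limit of -1. Tnf lies between -1.43 and -0.96 under every way of fitting shown, and Ebi3 with EVFx moves from -0.56 to -0.08 when length and GC trends are removed.

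Whether the genotype effect differed between the fractions was tested as an interaction over the 16 airway fluid libraries. No member was called, beside 7.79% of all genes, and none had an unadjusted p under 0.05. That share was 18.2% with RNY1-/- ProteinFx replicates 1 and 2 only and 0.971% with replicates 3 and 4 only, 4.65% without replicate 2 and 5.14% without replicate 1 of that group, and 4.15% with length and GC trends removed. DESeq2 also called 0. For Tnf the genotype effect with ProteinFx minus that with EVFx was -0.14 on the log2 scale (95% interval -0.70 to 0.42, adjusted p = 0.698). The interval for Ebi3 was -0.18 to 0.83 and that for Il12b, which rests on 18 counts in the ProteinFx libraries, was -2.79 to 0.97. With the replicate number as a block and length and GC trends removed, Il27 was called (-1.39, adjusted p = 0.0103).

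The fractions were given at doses set on different scales, particles for EVFx and protein for ProteinFx, and their values are set side by side. With RNY1+/+ fluid 4 of 5 members tested were lower with ProteinFx than with EVFx, beside 13.5% of all genes called. The log2 fold changes were -2.79 for Tnf, -5.03 for Il12b, -1.68 for Ebi3 and -1.07 for Il27. With RNY1-/- fluid the same 4 were lower, beside 8.97% of all genes, at -2.96, -5.95, -1.37 and -1.81. Il12b with both genotypes, and Il27 with RNY1-/- fluid, passed the filter only through the EVFx libraries. The Il27 difference with RNY1+/+ fluid was -0.84 without RNY1+/+ EVFx replicate 1, -0.98 without replicate 2 and -0.91 without RNY1+/+ ProteinFx replicate 3, and -0.60 with length and GC trends removed, each of which ended the call. Il15 did not pass with either genotype, at 0.28 (adjusted p = 0.062) and 0.00 (95% interval -0.30 to 0.30).

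Of 22 receptor and signalling genes of these cytokines, 16 or 17 passed the filter in each comparison with PBS. With RNY1+/+ EVFx 5 of 16 rose and 2 fell, beside 16.4% of all genes called (median log2 fold change of those tested 0.51, against -0.03 over all genes). With RNY1-/- EVFx 4 of 16 rose and 1 fell, beside 22.5% (median -0.01). With RNY1+/+ ProteinFx 5 of 17 rose and none fell, beside 21.3% (0.07), and with RNY1-/- ProteinFx 4 of 17 rose and none fell, beside 14.3% (0.26). Both ProteinFx counts include Il12rb1 (4.54 and 4.51), named after its values were seen. It was under the filter in the EVFx comparisons with PBS and passed it here through the ProteinFx libraries, so these 2 counts are not read against the shares. Tnfrsf1b, which encodes TNFR2, averaged 245 ± 25.3 CPM in PBS, 1290 ± 92.1 after RNY1+/+ EVFx, 1210 ± 104 after RNY1-/- EVFx, 898 ± 74.6 after RNY1+/+ ProteinFx and 505 ± 41.6 after RNY1-/- ProteinFx. Its log2 fold changes over PBS were 2.58, 2.55, 2.04 and 1.11, and it was called in all 4. Jak2, the kinase, was called in all 4 as well, at 2.40, 2.38, 2.65 and 2.1. Il6ra and Il6st, the chains of the IL-6 receptor, were those that fell with RNY1+/+ EVFx (-1.36 and -1.28), and Il6ra fell with RNY1-/- EVFx (-1.10); these genes, like Traf2 below, were chosen for naming after their values were seen. Between genotypes 1 of 17 was called with EVFx, beside 2.35% of all genes, and 0 of 17 with ProteinFx, beside 1.82%. The gene called was Traf2, an adaptor of TNF receptors, which was lower with RNY1-/- than with RNY1+/+ EVFx (-1.1). With ProteinFx, Tnfrsf1b (-0.92, adjusted p = 0.000353) and Jak2 (-0.54, adjusted p = 0.0188) were lower with RNY1-/- fluid, under the fold limit. No other gene of the list had an adjusted p under 0.05 with ProteinFx. With EVFx, Rhbdf2 (-0.91), Tnfrsf1a (-0.7), Il2rg (-0.62), Il10ra (-0.47) and Tyk2 (-0.41) were lower with RNY1-/- fluid. Il15ra (0.92), Il6st (0.6), Il6ra (0.28) and Jak1 (0.26) were higher. Each had an adjusted p under 0.05 and was under the fold limit. Over all genes, the adjusted p was under 0.05 for 5379 of 10321 with EVFx and 583 of 10471 with ProteinFx. With each library left out, the genes of the list called between genotypes numbered 1 to 2 with EVFx and 0 to 1 with ProteinFx.

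Il15ra, the chain that presents IL-15, was above PBS in the same 4 groups as Il15. It averaged 5.40 ± 1.48 CPM in PBS, 29.9 ± 5.55 after RNY1+/+ EVFx, 53.6 ± 8.84 after RNY1-/- EVFx, 61.1 ± 15.7 after RNY1+/+ ProteinFx and 36.0 ± 11.7 after RNY1-/- ProteinFx, and it was called over PBS in all 4 (log2 fold changes 2.67, 3.58, 3.69 and 2.81). The genotype effect was 0.92 (adjusted p = 0.000394) with EVFx and -0.88 (adjusted p = 0.0538) with ProteinFx. The difference between these was itself called in the interaction test (-1.81, standard error 0.31, adjusted p = 0.00187), and with each library left out it was -1.96 to -1.60. RNY1-/- ProteinFx held 22.1 and 30.6 CPM in replicates 1 and 2 and 46.6 and 44.6 CPM in replicates 3 and 4. Replicates 3 and 4 lay within the RNY1+/+ ProteinFx range of 42.5 to 80.9 CPM. Leaving out single libraries removes neither of these pairs, so the range given for the interaction does not cover this split. Il15 had an interaction of -0.26 (95% interval -0.68 to 0.15).

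Among 32 other ligands of these families, 6 or 7 passed the filter in each comparison. Of the 16 TNF superfamily ligands listed, 4 were tested in 3 of the comparisons with PBS and 5 in that of RNY1-/- ProteinFx, and all those tested were called, beside 16.4%, 22.5%, 21.3% and 14.3% of all genes. Tnfsf10 and Tnfsf15 were higher and Tnfsf12 and Tnfsf13 lower in each. With PBS means of 2.34 and 1.92 CPM, Tnfsf10 and Tnfsf15 passed the filter only through the airway fluid libraries and so had to differ. The counts of these ligands called are thus not read against the shares of all genes. Against PBS, Tnfsf13b (BAFF), named after its values were seen, was tested and called only with RNY1-/- ProteinFx (1.67, adjusted p = 0.00277). It was under the filter in the other comparisons with PBS and passed it here through the RNY1-/- ProteinFx libraries. The filter thus favoured this call, which is not read as particular to that group. Tnfsf10, which encodes TRAIL, rose from 2.34 ± 0.77 CPM in PBS to 10.2 ± 5.09 after RNY1+/+ EVFx, 14 ± 6.56 after RNY1-/- EVFx, 43.3 ± 8.69 after RNY1+/+ ProteinFx and 26.3 ± 2.79 after RNY1-/- ProteinFx. The log2 difference between ProteinFx and EVFx of RNY1+/+ fluid was 2.04 (adjusted p = 4.65e-06), and that of RNY1-/- fluid was 0.68 (adjusted p = 0.0627), which did not pass. Tnfsf15, which encodes TL1A, rose by 3.47, 3.78, 2.79 and 2.36 on the log2 scale. Tnfsf13 (APRIL) and Tnfsf12 (TWEAK) fell: Tnfsf13 from 35.2 ± 5.31 CPM in PBS to group means of 4.15 to 16.2 CPM, and Tnfsf12 from 132 ± 27.9 CPM to means of 28.8 to 59.9 CPM. With length and GC trends removed, Tnfsf12 no longer passed the limit on fold change with either ProteinFx (-0.79 and -0.48), nor did Tnfsf13 with RNY1-/- ProteinFx (-0.76). The RNY1-/- ProteinFx calls of both also ended with RNY1-/- ProteinFx replicates 1 and 2 only (-0.78 and -0.69) and without single libraries. These were RNY1-/- ProteinFx replicates 3 and 4 for both (up to -0.94 for Tnfsf12 and -0.87 for Tnfsf13) and PBS replicates 1 and 4 for Tnfsf13. In the interaction test Tnfsf10 (-1.37, adjusted p = 0.0174) and Tnfsf13 (1.19, adjusted p = 0.0149) were called, in opposite directions. With length and GC trends removed they were not (-1.03 and 0.85), nor with RNY1-/- ProteinFx replicates 3 and 4 only (-1.18 and 0.62), and Tnfsf10 was not without RNY1-/- EVFx replicate 1 (-1.01, adjusted p = 0.0546). Tnfsf10 was called with the replicate block and trends removed together (-1.04), and Tnfsf13 was not (0.83). Of the other ligands, 1 of 7 of the IL-6 family, 0 of 4 of the IL-10 family and 1 of 5 of the common gamma chain were high enough to be tested against PBS, and neither of those tested was called.

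**Figure D4:**
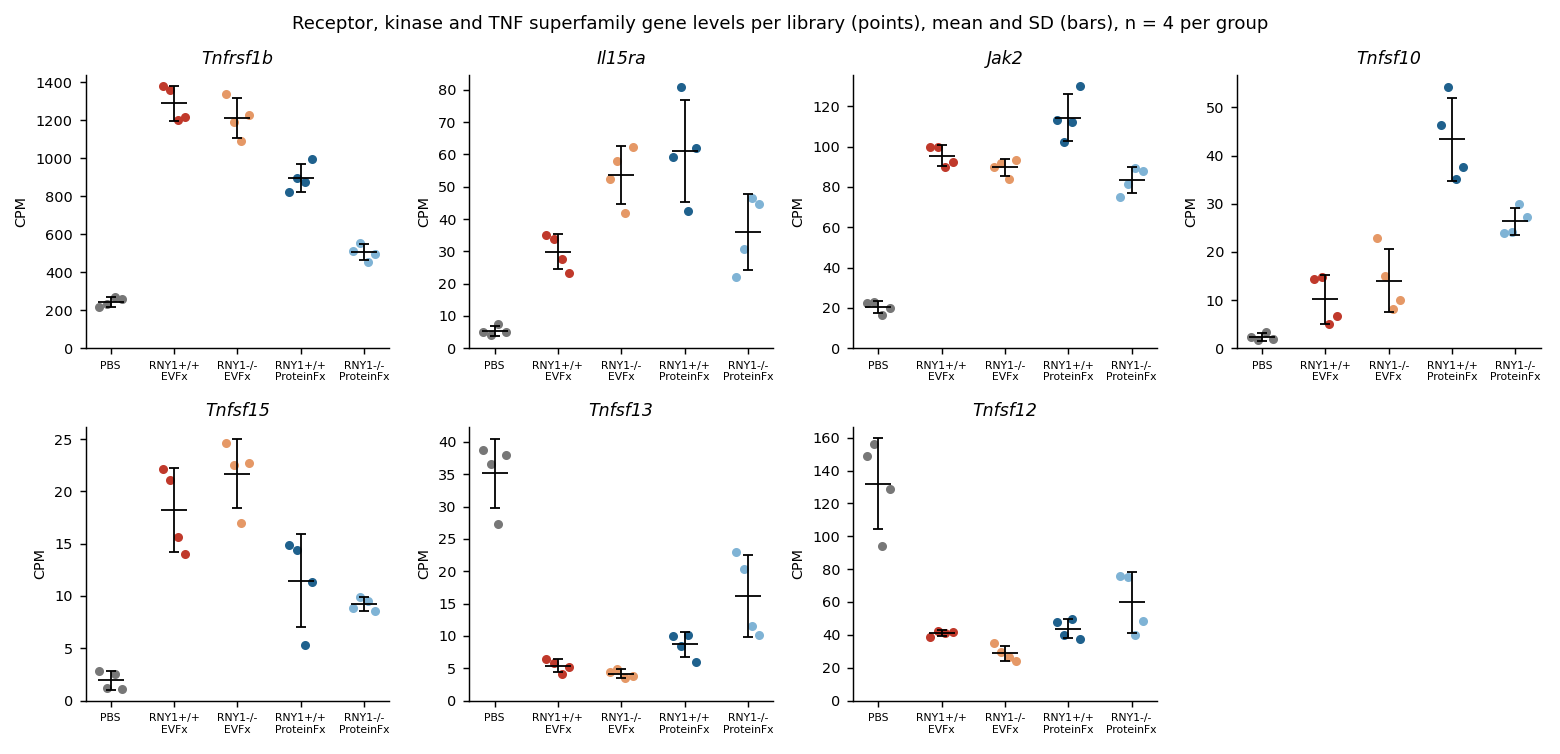
Level in CPM (y axis, linear, from 0) of the TNF receptor gene Tnfrsf1b, the IL-15 receptor gene Il15ra, the kinase gene Jak2 and 4 TNF superfamily ligand genes in every library of the 5 groups (x axis); points are libraries, horizontal bars group means and vertical bars SD with n = 4. Tnfrsf1b, Il15ra, Jak2, Tnfsf10 and Tnfsf15 are above all PBS libraries in every airway fluid group, and Tnfsf13 and Tnfsf12 are below them.

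Across the 20 libraries the log2 levels of Tnf, Il12b, Il27 and Ebi3 were correlated with each other, with Pearson r from 0.789 (Il27 and Ebi3) to 0.931 (Tnf and Il12b), while r between Il15 and these 4 ranged from 0.136 to 0.543. The libraries share 5 treatments, so these values describe the treatments as much as the genes. Il12b had 0 to 4 counts in each PBS and ProteinFx library, so its r values largely set values near the floor against the EVFx libraries. Among genes with a mean of at least 10 CPM, the 3 most similar to Tnf were Pik3r5 (r = 0.988), Icam1 (0.983) and Traf1 (0.982). For Ebi3 they were Sema4a (0.978), Txn1 (0.975) and Kif3c (0.968), and for Il27 Tlk2 (0.962), Cflar (0.944) and Sla (0.944). For Il15 they were Calhm6 (0.943), Gm57169 (0.930) and Irgm1 (0.928).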

How the data were processed

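RNA of bone marrow-derived macrophages was sequenced by a 3′-end method with molecular identifiers in 20 libraries, 4 in each of 5 groups assigned from the sample titles. Per the study's methods and the labels, the authors checked reads with FastQC 0.12.1, trimmed them with fastp 0.24.0, aligned them to GRCm39 with STAR 2.7.11, handled alignments with SAMtools 1.22.1, collapsed duplicates by molecular identifier and counted them by strand on exons and 3′ UTRs with featureCounts (Subread 2.1.1). The authors shared reads that map to several places as fractions, so the deposited table holds estimated counts, of which 23.6% to 26.3% of the detected genes per library were not whole, beside CPM (counts-per-million) that equal each count over its library's total. A count at the 3′ end does not scale with length, so levels were compared between groups and not between genes. Rows with a blank symbol (21909 of 78409) carry gene IDs and stayed in all fits.

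Counts were rounded and tested over all genes with edgeR 4.0.16 (R 4.3.3): TMM scaling, filterByExpr, a further limit of 3 CPM on the mean of the fitted libraries, the quasi-likelihood test and Benjamini-Hochberg adjustment over all genes tested. A DEG needed an adjusted p below 0.05 with a log2 fold change beyond 1 in either direction. Each comparison was fitted on its own 8 libraries, and the genotype by fraction interaction on 16. Alternatives were DESeq2 1.42.0, total counts as scaling, other filters, all 20 libraries in a single fit, the replicate number as a block, removal of length and GC trends (splines with 4 degrees of freedom), leaving out each library, and the RNY1-/- ProteinFx replicates in pairs. Ratios of subunits used a pseudocount of 0.5 and exact two-sided permutation tests. Groups at or under 3 counts were compared by pooled counts with exact 95% intervals, which cover counting error only. The fitting code was tested on simulated data.

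Same-numbered replicates deviated together, with every correlation over 0.1, in 2 of 10 pairs of groups: PBS with RNY1-/- EVFx (0.129 to 0.381) and RNY1-/- EVFx with RNY1-/- ProteinFx (0.218 to 0.399). This rests on the data and not on the labels. Values printed for these comparisons are of fits without the block, and the blocked fits changed no call of a member.

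The 9 cytokine genes and the gene lists were chosen with earlier results of these data known. All 9 are named. From each of the 2 lists, the up to 3 DEGs of largest fold change with a mean of at least 10 CPM were named in each comparison with PBS or between genotypes, and the 3 genes of highest Pearson r with each member over the 20 libraries (log2 CPM, prior count of 2, mean of at least 10 CPM) as most similar; those of Il12b are not reported here. Promoters came from RefSeq (GRCm38.p6) and 3′ UTRs, lengths and GC contents from GENCODE (GRCm38), matched by symbol and gene ID, since no GRCm39 sequence was used here.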

Additional observations from a re-analysis of the deposited data

Results flagged for a closer look

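Among 33 groups of 4 libraries in which a member was measured, 5 held a library that stood apart from the other 3 by Dixon's gap test, which flags about 1 in 20 groups by chance. Tnf was 32.6 CPM in RNY1+/+ ProteinFx replicate 4, against 18 to 20.1 CPM in the others, and without it the log2 fold change over PBS was 1.93 in place of 2.19. In the same library Il10 was 4.34 CPM, against 2.51 to 2.79 CPM. Il12b was 1.01 CPM (4 counts) in RNY1+/+ ProteinFx replicate 3, against 0.507 to 0.574 CPM (2 to 3 counts). Il27 was 1.3 CPM in RNY1-/- ProteinFx replicate 4, against 1.96 to 2.08 CPM. Ebi3 was 110 CPM in RNY1+/+ EVFx replicate 3, against 146 to 150 CPM.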

How the results depend on the processing

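With DESeq2 and with the replicate number as a block, all 39 fold changes of members kept their direction and none changed its call as a DEG. With the block, Il15 passed the adjusted p between genotypes with EVFx (0.24, adjusted p = 0.0224) and in RNY1+/+ ProteinFx against EVFx (0.29, adjusted p = 0.0115), under the fold limit. The number of members called after EVFx over PBS was 4 with both genotypes in these fits, 5 and 5 with no fold limit, and 6 for RNY1+/+ and 5 for RNY1-/- with no filter. In RNY1+/+ ProteinFx against PBS the count of 1 became 2 with no fold limit, 3 with edgeR's default filter alone or all 20 libraries and 5 with no filter. In RNY1-/- ProteinFx against PBS the count of 0 became 2 with no fold limit and 1 with no filter, with length and GC trends removed, or with the block and trends together. Between genotypes with EVFx the count of 1 became 2 with no fold limit and 0 with trends removed, with or without the block. With ProteinFx the count of 1 became 2 with edgeR's default filter alone and with RNY1-/- replicates 1 and 2 only. In the interaction the count of 0 became 1 with the block and trends together. Leaving out each library gave 3 to 4 members in RNY1-/- EVFx against PBS (Il27 fell under the filter without RNY1-/- EVFx replicate 2) and in RNY1+/+ ProteinFx against EVFx, and changed no other count. A pseudocount of 1 left 0 ratio comparisons called.

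Direction reversed only for values that had not been called. For Ebi3 over PBS these were -0.035 with total counts for RNY1+/+ ProteinFx (-0.056 to 0.29 with each library left out), and 0.45 with trends removed, 0.44 with block and trends and 0.22 with replicates 1 and 2 only for RNY1-/- ProteinFx (-0.32 to 0.023 with each library left out). For Il27 between genotypes with EVFx they were 0.054 with trends removed and 0.027 with block and trends. Between genotypes with ProteinFx, Ebi3 was 0.094 with replicates 1 and 2 only, and Il15 was 0.074 with total counts, 0.011 with no filter and 0.038 with replicates 1 and 2 only (-0.075 to 0.063 with each library left out). Il15 in RNY1-/- ProteinFx against EVFx was -0.0040 with the default filter alone, -0.0071 with no filter, -0.041 with trends removed, -0.039 with block and trends and -0.065 with replicates 3 and 4 only (-0.10 to 0.11 with each library left out). In the interaction Tnf was 0.036 with total counts and 0.0030 with replicates 1 and 2 only (-0.28 to 0.12 with each library left out), and Ebi3 was -0.21 with trends removed, -0.24 with block and trends and -0.23 with replicates 3 and 4 only. The cause was not tested.

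Scaling by total counts in place of TMM moved the median of all genes from -0.03 to between -0.27 and -0.10 in the comparisons with PBS, from 0.02 to 0.11 between genotypes with ProteinFx, from 0.01 to 0.19 in RNY1-/- ProteinFx against EVFx and from 0.00 to 0.16 in the interaction. It moved the DEGs of all genes from 890 higher and 884 lower to 738 and 1223 in RNY1+/+ EVFx against PBS, from 967 and 1449 to 698 and 2138 in RNY1-/- EVFx against PBS, from 971 and 1340 to 774 and 1847 in RNY1+/+ ProteinFx against PBS, from 69 and 122 to 101 and 99 between genotypes with ProteinFx, from 502 and 432 to 710 and 322 in RNY1-/- ProteinFx against EVFx, and from 557 and 257 to 974 and 134 in the interaction. In the 8 pairs of groups whose numbers did not pair the libraries by the correlation rule, correlations of same-numbered replicates lay between -0.394 and 0.641, and the block changed no call of a member. Without PBS replicate 3, which holds the only PBS counts of Il12b, its log2 fold changes after EVFx were 10.2 and 9.89. Il12a and Il23a, at or under 3 counts in every library, entered only the fits with no filter. Il6 and Il10 were under the mean of 3 CPM required, and the values given for them are from fits with other filters.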
